A study of Mus musculus with 7 samples.

Results

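The loci of 10 genes of the NF-kB pathway were examined by ATAC-seq in regulatory T (Treg) cells: the 5 NF-kB factor genes Rel, Rela, Relb, Nfkb1 and Nfkb2, the inhibitor of NF-kB (IkB) genes Nfkbia, Nfkbie, Nfkbid and Nfkbiz, and Tnfaip3. A peak of the deposited count table was taken as part of a locus if it overlapped the gene, or lay within 100 kb of it with that gene the nearest protein-coding gene. The 10 loci held 85 of the 50213 peaks, and each had at least 2. ATAC-seq treats nuclei with a transposase that cuts and tags open DNA, so the count in a peak measures how accessible that stretch of chromatin was. The Opa1 KO group held 3 libraries, from chimeras made with marrow of Foxp3Cre Opa1 fl/fl mice, and the WT group held 4, from chimeras made with marrow of Foxp3Cre mice. In both groups this marrow was mixed in equal parts with CD45.1+ marrow, and the sorted splenic cells were CD45.2+, CD45.1-negative, CD4+ and positive for the Foxp3-YFP reporter, 50000 per library. Both groups therefore carried Cre and the reporter. Cre was driven by Foxp3, so the deletion was directed to cells that express Foxp3, and Treg cells of CD45.1+ origin were present in the same hosts. Opa1 encodes a GTPase that fuses the inner mitochondrial membrane and shapes its cristae. No source used here states the age of the mice.

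NF-kB factors act as dimers. In resting cells the IkB proteins hold the dimers in the cytoplasm. Signals from antigen, costimulatory and TNF-family receptors activate a kinase complex that marks the IkB proteins for degradation, and the freed dimers enter the nucleus and bind kB sites, many of them in the genes of their own inhibitors. In Treg cells, c-Rel (from Rel) and p65 (from Rela) are known to be needed for development and for the mature cells' identity.

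Promoter windows of 7 of the 10 genes were read from RefSeq (GRCm38.p6, the assembly that mm10 names), each running from 250 bases before to 50 bases after an annotated transcript start. Nfkb1, Relb and Nfkbiz were not in the table of windows used here. The 7 genes had 12 windows, of which 11 overlapped a deposited peak and 5 lay wholly inside one. The windows were searched on both strands for the kB consensus, a run of 10 bases that opens with 3 guanines, a purine and any base, and ends with A or T, 2 pyrimidines and 2 cytosines. A match was found in 8 windows of 6 genes, all but Rela. A match was held by 4.51% of all 32851 RefSeq windows, and by 5.33% of the 11119 that overlapped a deposited peak. The windows of a gene can overlap each other, and a match is a description of the letters, not a site shown to be bound. The AP-1 site TGANTCA was found in 3 of the 12 windows, in 7.81% of all windows and in 4.77% of those that overlapped a peak. The 5 windows below are shown as examples of windows that hold a kB match and lie in or overlap a peak described in the results; windows without a match are not shown. Capitals mark the kB matches, and overlapping matches were merged.
Nfkb2 upstream start, chr19:46304487-46304786, plus strand: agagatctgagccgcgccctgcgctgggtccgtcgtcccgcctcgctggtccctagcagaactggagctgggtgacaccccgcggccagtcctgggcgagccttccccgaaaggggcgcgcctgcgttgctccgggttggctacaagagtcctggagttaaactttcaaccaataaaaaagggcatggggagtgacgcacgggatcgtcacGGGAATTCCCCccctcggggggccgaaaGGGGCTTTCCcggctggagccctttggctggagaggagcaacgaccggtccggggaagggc
Nfkb2 downstream start, chr19:46305445-46305744, plus strand: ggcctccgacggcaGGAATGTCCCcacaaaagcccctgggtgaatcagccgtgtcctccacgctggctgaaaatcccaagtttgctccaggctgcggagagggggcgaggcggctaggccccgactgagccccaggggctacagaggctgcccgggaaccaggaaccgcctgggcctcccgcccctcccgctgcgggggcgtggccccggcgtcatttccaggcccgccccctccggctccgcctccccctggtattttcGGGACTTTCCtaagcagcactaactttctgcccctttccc
Nfkbia, chr12:55492598-55492897, minus strand: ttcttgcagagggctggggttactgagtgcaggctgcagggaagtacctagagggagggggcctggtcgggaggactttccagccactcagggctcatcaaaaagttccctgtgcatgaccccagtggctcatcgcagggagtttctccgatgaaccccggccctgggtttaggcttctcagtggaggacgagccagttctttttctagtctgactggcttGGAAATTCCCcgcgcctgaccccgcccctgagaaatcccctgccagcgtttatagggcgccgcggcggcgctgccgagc
Rel, chr11:23770920-23771219, minus strand: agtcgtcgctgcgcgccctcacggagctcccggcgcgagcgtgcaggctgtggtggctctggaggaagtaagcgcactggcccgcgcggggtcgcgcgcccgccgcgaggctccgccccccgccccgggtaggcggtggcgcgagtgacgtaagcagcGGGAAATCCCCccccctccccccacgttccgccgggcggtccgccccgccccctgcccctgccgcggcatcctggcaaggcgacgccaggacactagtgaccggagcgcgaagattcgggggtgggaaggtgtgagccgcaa
Tnfaip3, chr10:19015361-19015660, minus strand: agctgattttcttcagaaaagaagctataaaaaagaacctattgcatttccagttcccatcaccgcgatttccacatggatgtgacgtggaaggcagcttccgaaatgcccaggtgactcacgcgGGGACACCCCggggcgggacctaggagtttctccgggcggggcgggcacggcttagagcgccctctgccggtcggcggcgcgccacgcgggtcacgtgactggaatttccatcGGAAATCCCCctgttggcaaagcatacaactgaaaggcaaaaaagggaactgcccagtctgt
At the upstream Nfkb2 start the matches ran from 39 to 29 and from 11 to 2 bases before the start. At Nfkbia the match ran from 29 to 20 bases before it, at Rel from 92 to 82, and at Tnfaip3 from 125 to 116 and from 12 to 3.

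Library totals in peaks were 3384325, 1658436 and 1948041 counts in Opa1 KO libraries, against 2134586, 1534394, 1706750 and 1951574 in WT libraries. Between 78.0% and 86.3% of the counts in a library were even, so read pairs were probably counted by both mates. WT 2 and WT 3 did not differ beyond sampling noise across the 36418 peaks averaging 10 counts or more (p = 0.111, chi-square on halved counts), but did across the 11332 averaging 50 or more (p = 0.0385). Theirs was the smallest difference of any pair within a group in both. They were counted as 1 sample in each mean ± SD, which leaves 3 WT values, though the labels give them as separate replicates. The edgeR fits reported here kept them as 2 libraries, so an SD and an SE treat them differently. All 6 Treg marker genes examined had peaks, with summed levels of 1535 to 1610 counts scaled to library size (CPM, per 1e6 counts) in Opa1 KO libraries and 1487 to 1606 CPM in WT libraries. The B cell genes Ms4a1 and Cd79a, the myeloid genes Csf1r and Lyz2, the NK cell gene Ncr1, the erythroid gene Hba-a1 and the dendritic cell gene Xcr1 had no peak. The only peak at Opa1 lay at 1 end of the gene and says nothing on the floxed exons; it had 33.3, 29.1 and 42.6 CPM in Opa1 KO libraries, against 36.8, 33.8, 37.3 and 37.9 CPM in WT libraries.

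The loci differed in layout. Nfkb1 had 24 peaks, Nfkbiz 19, Tnfaip3 15, Nfkbia 9 and Rel 8, and the other 5 genes had 2 each. Of the 85 peaks, 14 lay within 1 kb of a gene end, 29 inside a gene and 42 outside. Per length, Relb was the most accessible, with a summed level of 147 CPM per kb of peak in Opa1 KO cells and 140 in WT cells. Nfkbia followed with 73.2 CPM per kb in Opa1 KO cells and 72.0 in WT cells. Over the 7 libraries Relb, Nfkbia and Nfkb1, the next in order, did not overlap, but Nfkbia overlapped Nfkbid. From Nfkb1 down the order was Nfkbid, Nfkb2, Rel, Nfkbiz, Tnfaip3 and Nfkbie, and each of these overlapped its neighbour. Rela was lowest, at 29.9 CPM per kb in Opa1 KO cells and 28.2 in WT cells, below every library of the other 9 genes. The median tested peak at these loci had 48.3 CPM per kb in Opa1 KO cells and 47.0 in WT cells, against 38.5 and 38.8 over all tested peaks.

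**Figure D1:**
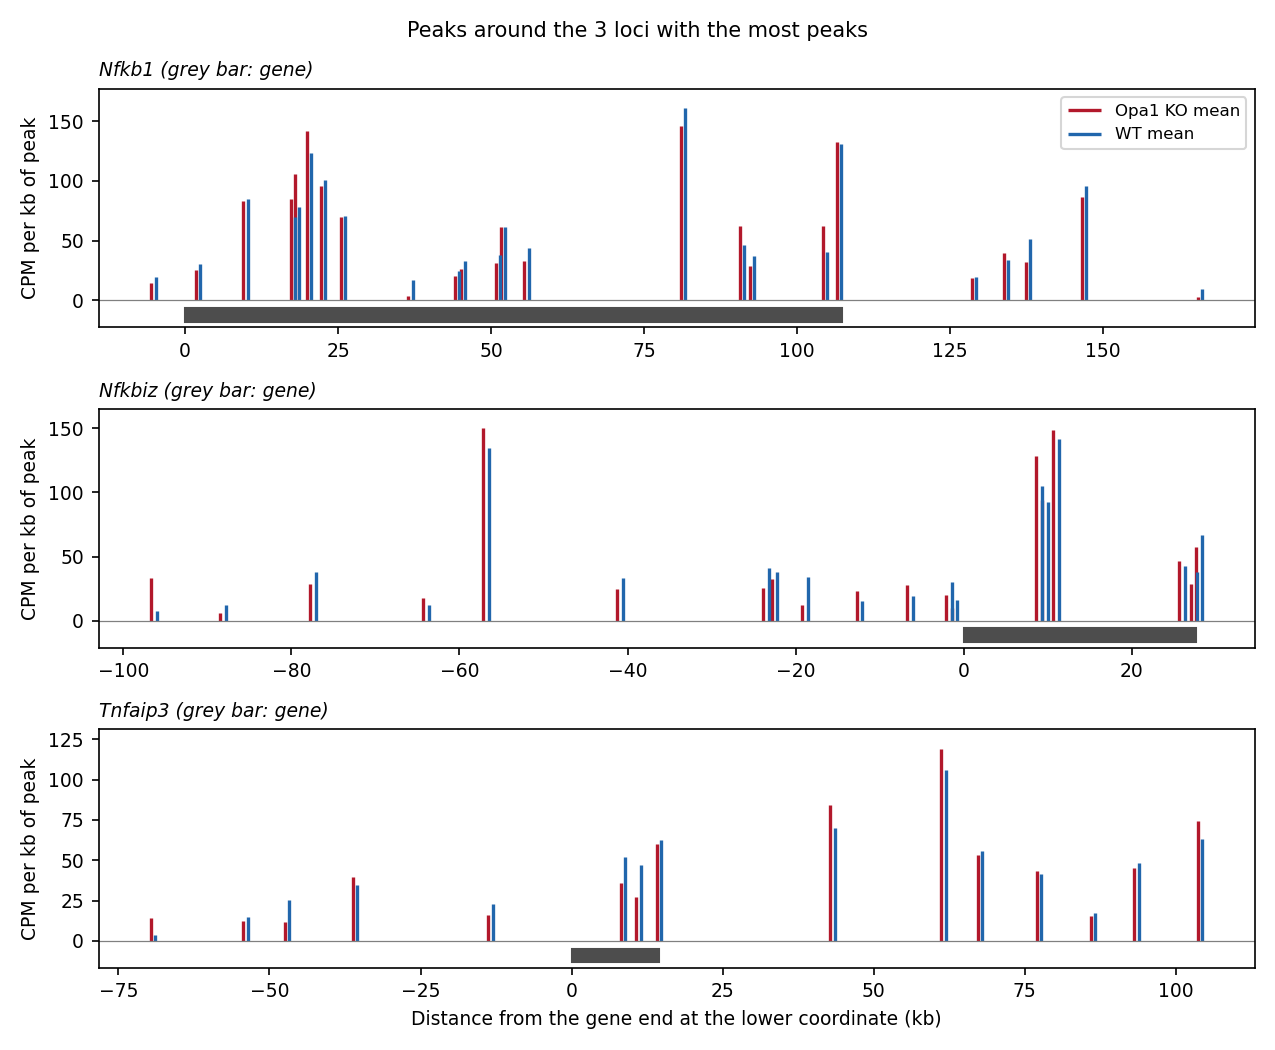
Mean level of each peak (CPM per kb of peak) at Nfkb1, Nfkbiz and Tnfaip3, the 3 loci with the most peaks, against distance in kb from the gene end at the lower coordinate. Lines stand for the Opa1 KO mean (red) and the WT mean (blue), offset to either side of the peak, and the grey bar is the gene. At Tnfaip3 most of the level lay outside the gene.

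No peak and no gene sum at the 10 loci passed the test for a difference between Opa1 KO and WT cells. Of the 85 peaks, 74 had enough counts to be tested, and 0 had an adjusted p under 0.05 in edgeR's quasi-likelihood test, beside 0.0867% of all 38041 tested peaks. DESeq2 and limma-voom also called 0. The smallest adjusted p at these loci was 0.0548. Before adjustment, 7 peaks had a p under 0.05, which is 9.46% of the 74, beside 9.47% of all tested peaks. Of these, 3 were higher and 4 lower in Opa1 KO cells, beside 4.74% and 4.73% of all tested peaks. DESeq2 gave 6 such peaks of 85 (7.06%, beside 7.78% of all its tested peaks) and limma-voom 9 of 74 (12.2%, beside 10.3%). Opa1 KO and WT libraries did not overlap at 9 of the 74 peaks, beside 9.36% of all tested peaks. At 5 the Opa1 KO libraries were higher and at 4 lower, beside 4.85% and 4.51% of all tested peaks. The log2 fold changes of Opa1 KO over WT had a median of -0.01 at these loci, with 35 above 0 and 39 below, and a median of -0.00 over all tested peaks. Of the 74 peaks, 59 passed the filter on low counts in all 7 libraries. At 1 peak only Opa1 KO libraries were past its cutoff, and at 1 only WT libraries. Peaks at Relb, Nfkbiz and Tnfaip3 also had 4 WT libraries past it but only 1 Opa1 KO library. In pooled cells, a site open in fewer cells and a site less open in each cell cannot be told apart.

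By position, the medians lay close to those of all tested peaks. The 14 peaks within 1 kb of a gene end had a median log2 fold change of 0.05, beside 0.04 over all tested gene-end peaks. Inside genes 27 tested peaks had a median of -0.05, beside -0.01. Outside genes 33 tested peaks had a median of -0.03, beside -0.04.

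Summed per gene, 0 of the 10 loci had an adjusted p under 0.05, beside 0.346% of the 13287 genes tested, and DESeq2 and limma-voom also called 0. Nfkb2 alone had an unadjusted p under 0.05, beside 11.4% of all genes (5.38% higher and 6.01% lower in Opa1 KO cells). It alone had Opa1 KO and WT libraries that did not overlap, beside 9.62% of all genes (4.69% higher and 4.93% lower in Opa1 KO cells). This depends on the window. With only peaks within 10 kb, or only overlapping peaks, summed, Tnfaip3 also had an unadjusted p under 0.05 (edgeR), lower in Opa1 KO cells. At Nfkb1, Nfkbia, Nfkbiz and Tnfaip3, where counts were highest, the 95% intervals of the fold change were narrow, and all 4 lay between 0.900 and 1.11. These intervals are for the mean fold change between the groups under the fitted model, and single libraries can spread more widely.

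**Figure D2:**
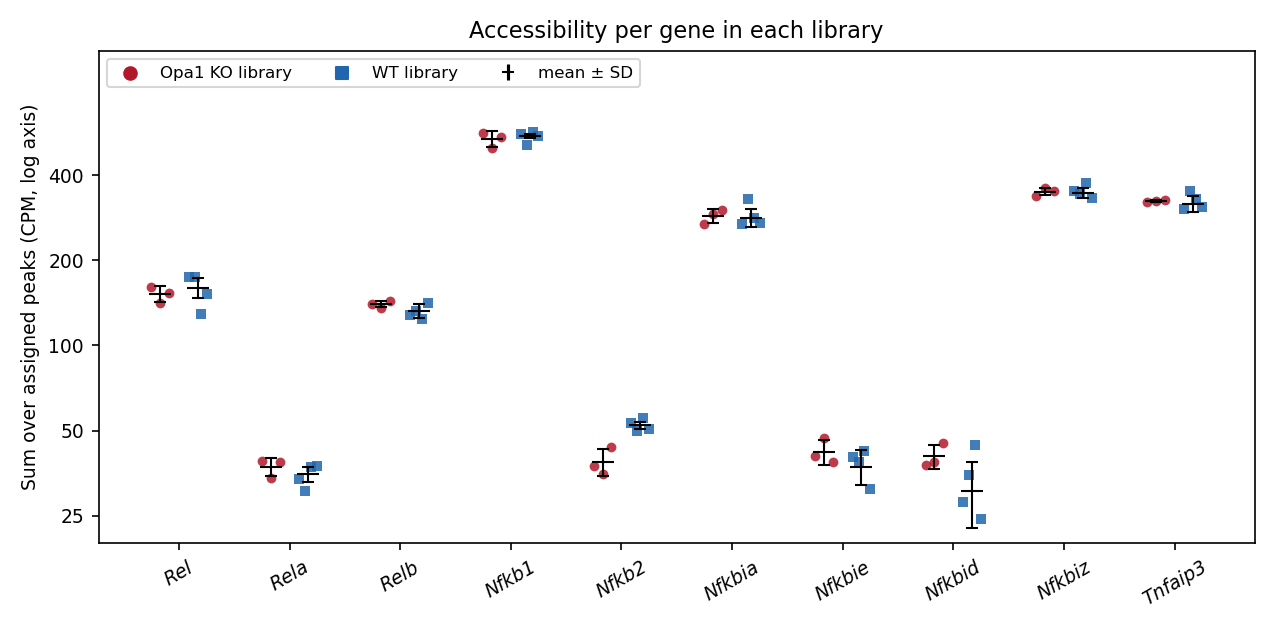
Sum over the assigned peaks of each gene in each library (CPM, log axis), with Opa1 KO libraries (red circles) left of WT libraries (blue squares) and black bars for mean ± SD, WT 2 and 3 counted as 1 sample. At Nfkb2 the Opa1 KO libraries reached 43.6 CPM at most and the WT libraries were at 49.9 CPM or above, and the groups overlapped at the other 9 genes.

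**Figure D3:**
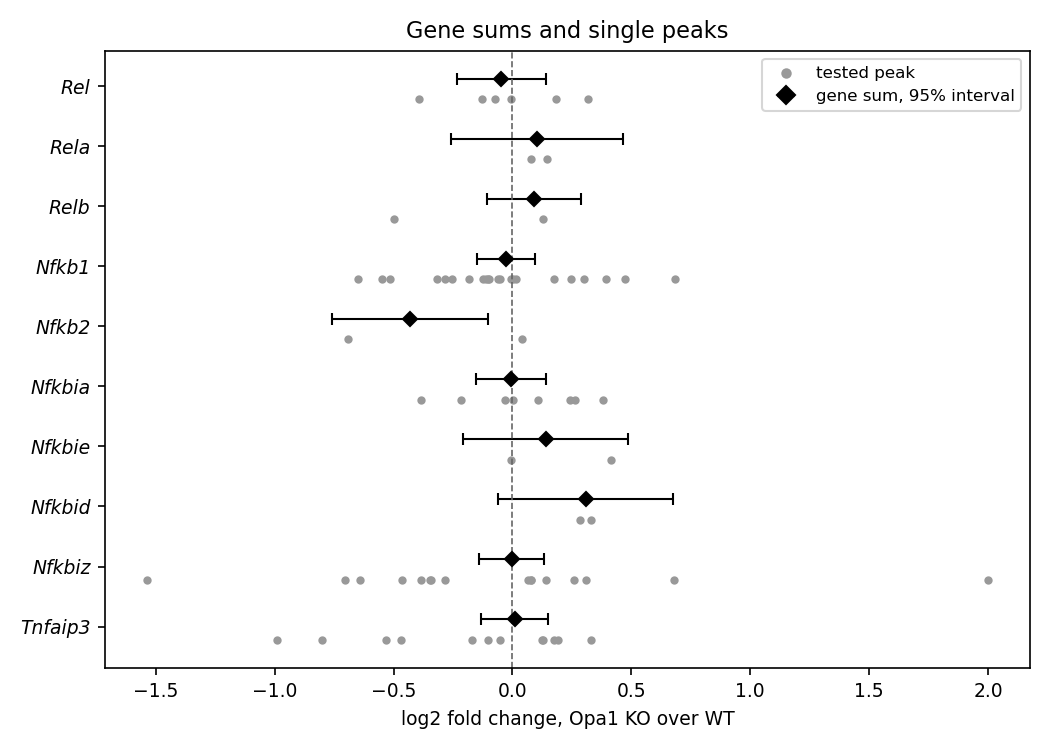
Log2 fold change of Opa1 KO over WT for the gene sums (black diamonds, with 95% intervals) and for each tested peak (grey points). The gene sums lay between -0.43 and 0.31, and single peaks between -1.54 and 1.999.

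Among the factor genes, Rel encodes c-Rel, the factor most tied to antigen-receptor signals in lymphocytes. Its summed level was 161, 141 and 153 CPM in Opa1 KO libraries, against 175, 175, 129 and 152 CPM in WT libraries. The groups overlapped, and the log2 fold change was -0.05 ± 0.09 (SE; adjusted p = 0.927, edgeR). The largest Rel peak, chr11:23770580-23771647, covers the promoter window shown above. It had 85.7, 88.5 and 90.1 CPM in Opa1 KO libraries, against 108.5, 111.0, 69.9 and 81.1 CPM in WT libraries. The means were 88.1 ± 2.24 CPM in Opa1 KO libraries and 93.4 ± 13.9 CPM in WT libraries (SD, n = 3 each). WT 2 and WT 3, counted as 1 sample, were the highest and lowest WT libraries here, so this SD understates the WT spread.

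Rela encodes p65, the activating partner of the most common dimer. Its sum was 38.9, 34.0 and 38.7 CPM in Opa1 KO libraries, against 33.8, 30.6, 37.2 and 37.5 CPM in WT libraries. The ranges overlapped and the log2 fold change was 0.10 ± 0.18 (SE; adjusted p = 0.911, edgeR). The locus had 2 peaks, at 22.9 and 55.5 CPM per kb in Opa1 KO cells and 21.5 and 52.1 in WT cells. The 95% interval of the fold change ran from 0.835 to 1.38.

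Relb encodes the factor that pairs with p52 in the alternative pathway. Its sum was 141, 136 and 143 CPM in Opa1 KO libraries, against 128, 133, 124 and 142 CPM in WT libraries. These ranges overlapped only through WT 4, and the log2 fold change was 0.09 ± 0.10 (SE; adjusted p = 0.811, edgeR). Nearly all of it came from the peak chr7:19628391-19629049 at 1 end of the gene, which held 95.6% to 97.2% of the counts in Opa1 KO libraries and 93.6% to 96.2% in WT libraries. That peak was the highest of all 74 per length, at 222 CPM per kb in Opa1 KO cells and 205 in WT cells.

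Nfkb1 encodes p105, which is processed to p50, the partner of p65 and c-Rel. Its 24 peaks summed to 565, 497 and 546 CPM in Opa1 KO libraries, against 557, 513, 567 and 551 CPM in WT libraries. The groups overlapped and the log2 fold change was -0.03 ± 0.06 (SE; adjusted p = 0.939, edgeR), the smallest error of the 10 genes. Its highest peak, chr3:135665682-135666324 inside the gene, had 93.7 ± 13.6 CPM in Opa1 KO libraries and 103 ± 11.3 CPM in WT libraries (SD, n = 3 each). Single Nfkb1 peaks went in both directions. The peak with the smallest p, chr3:135689080-135689373 inside the gene, had 19.4, 14.5 and 21.0 CPM in Opa1 KO libraries, against 14.5, 11.5, 8.43 and 11.1 CPM in WT libraries. Opa1 KO 2 and WT 1 nearly met, and the log2 fold change of 0.69 ± 0.29 did not pass (SE; adjusted p = 0.442, edgeR). Another peak inside the gene, chr3:135602818-135603124, had a log2 fold change of 0.47 (adjusted p = 0.488, edgeR). A peak 30.2 kb outside the gene, chr3:135722213-135722548, had a log2 fold change of -0.65 (adjusted p = 0.494, edgeR).

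Nfkb2 encodes p100, which holds RelB back in the cytoplasm and is cut to p52 in the alternative pathway, and its locus had the lowest p of the 10 gene sums. Both of its peaks lie inside the RefSeq gene span, chr19:46300994-46312400. They summed to 37.5, 35.2 and 43.6 CPM in Opa1 KO libraries, against 53.2, 49.9, 55.2 and 50.6 CPM in WT libraries. Every Opa1 KO library lay below every WT library. The log2 fold change was -0.43 ± 0.17 (SE), the 95% interval of the fold ran from 0.591 to 0.931, and the adjusted p was 0.273 (edgeR; unadjusted p = 0.0102).

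Of the 2 Nfkb2 peaks, the upstream one, chr19:46304433-46304863, was the one where the groups did not overlap. It covers the whole of the upstream window with its 2 kB stretches. It had 24.6, 17.7 and 29.1 CPM in Opa1 KO libraries, against 39.7, 37.9, 39.7 and 37.9 CPM in WT libraries. The WT libraries were nearly level and all Opa1 KO libraries were below them, at 23.8 ± 5.76 CPM in Opa1 KO and 38.8 ± 0.893 CPM in WT (SD, n = 3 each). The log2 fold change was -0.69 ± 0.20 (SE) and the adjusted p was 0.214 (edgeR; unadjusted p = 0.00122), so the peak did not pass. The second peak, chr19:46305460-46305841, overlaps the downstream window shown above and the window of a further RefSeq start at 46305930. Upstream and downstream name the windows shown, since the gene span begins before both. This second peak had 16.02, 20.2 and 18.3 CPM in Opa1 KO libraries, against 17.4, 16.2, 19.3 and 16.9 CPM in WT libraries. Here the groups overlapped, and the log2 fold change was 0.04 ± 0.27 (SE; adjusted p = 0.981, edgeR). The share of Nfkb2 counts in the upstream peak, computed after these values had been seen, was 60.6%, 46.7% and 61.4% in Opa1 KO libraries, against 69.5%, 70.0%, 67.3% and 69.2% in WT libraries. Whether the 2 peaks differed in their response was not tested. Summed levels of the 3 listed B cell genes with a peak were 37.5 to 45.1 CPM in Opa1 KO libraries and 47.4 to 56.4 CPM in WT libraries. Those of the NK cell genes were 222.1 to 226.9 CPM in Opa1 KO and 191 to 222.0 CPM in WT over 3 of 4. Taken singly, the groups overlapped at each of these genes: Pax5, Ebf1, Blk, Klrb1c, Eomes and Klrd1. The part of such cells in the values of Nfkb2, and of the other peaks named for their p, was not tested.

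**Figure D4:**
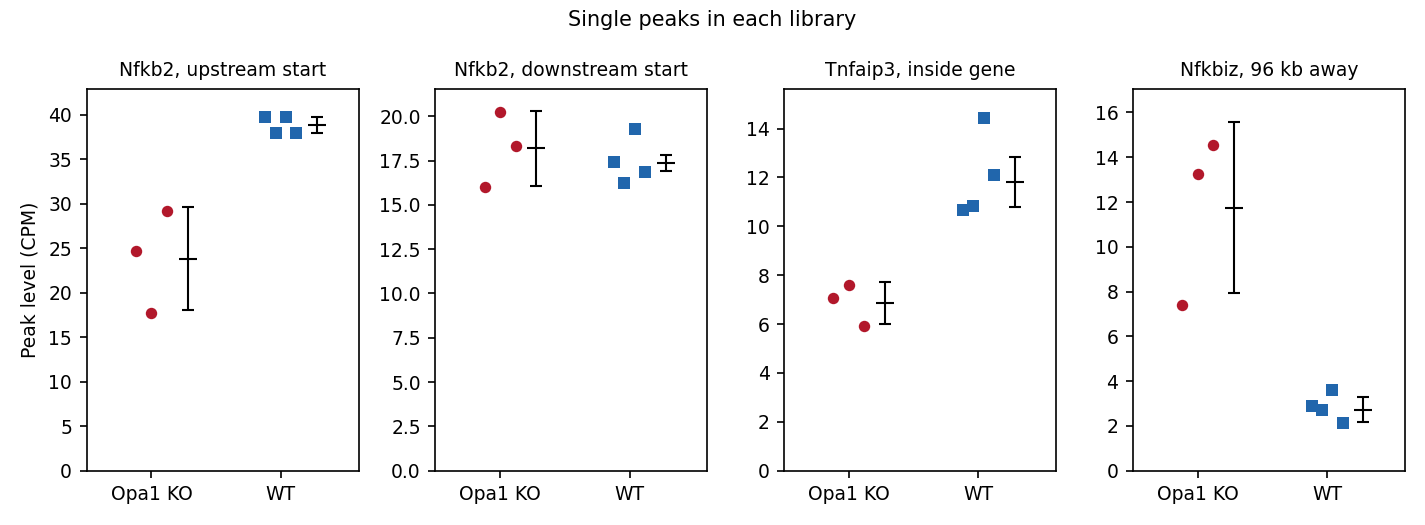
Level (CPM) in each library of 4 peaks: the upstream and downstream peaks of Nfkb2, the Tnfaip3 peak with the smallest p inside the gene, and the farthest Nfkbiz peak, with Opa1 KO (red circles) left of WT (blue squares) and black bars for mean ± SD. Opa1 KO and WT libraries overlapped only in the downstream Nfkb2 peak, and none of the 4 peaks had an adjusted p under 0.05.

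Among the inhibitors, Nfkbia encodes IkB-alpha, the main brake on p65 and c-Rel and itself a classic NF-kB target. Its sum was 269, 291 and 299.9 CPM in Opa1 KO libraries, against 268, 329.8, 281 and 272 CPM in WT libraries. The log2 fold change was -0.01 ± 0.07 (SE; adjusted p = 0.992, edgeR). Its broad promoter peak, chr12:55491732-55492959, was the widest of the 85 and covers the window shown above. It had 179, 176 and 195 CPM in Opa1 KO libraries, against 182, 205, 177 and 167 CPM in WT libraries, and its log2 fold change was 0.0039 ± 0.09 (SE; adjusted p = 0.995, edgeR). The smallest p at this locus was that of chr12:55495118-55495388, 2.47 kb beyond the gene, with a log2 fold change of -0.38 (adjusted p = 0.650, edgeR) that was -0.13 without WT 2 and -0.26 without Opa1 KO 1. The peak chr12:55489115-55489357 at the other end of the gene had nearly the same p and the opposite direction, with a log2 fold change of 0.38 (adjusted p = 0.650, edgeR).

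Nfkbie encodes IkB-epsilon, a cytoplasmic inhibitor that is degraded more slowly than IkB-alpha. Its sum was 40.6, 46.9 and 38.7 CPM in Opa1 KO libraries, against 40.2, 38.7, 42.2 and 31.2 CPM in WT libraries. The groups overlapped and the log2 fold change was 0.14 ± 0.18 (SE; adjusted p = 0.854, edgeR).

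Nfkbid encodes IkB-NS, a nuclear IkB known to help switch on Foxp3 in Treg precursors. Its sum was 37.8, 38.7 and 45.1 CPM in Opa1 KO libraries, against 27.98, 34.9, 44.5 and 24.3 CPM in WT libraries. WT 3 lay among the Opa1 KO libraries and the other WT libraries below them. The log2 fold change was the highest of the 10 gene sums, 0.31 ± 0.19 (SE), with a fold interval from 0.960 to 1.596 and an adjusted p of 0.558 (edgeR). It was 0.48 without WT 3 and 0.18 without WT 4.

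Nfkbiz (chr16:55811375-55838954) encodes IkB-zeta, a nuclear IkB that works with p50 at selected target genes. Its 19 peaks summed to 338, 359 and 351 CPM in Opa1 KO libraries, against 351, 342, 374 and 331 CPM in WT libraries. The groups overlapped, and the fold interval ran from 0.908 to 1.098 (adjusted p = 0.997, edgeR). The highest peak, chr16:55821981-55822660 inside the gene, had 101 ± 10.1 CPM in Opa1 KO libraries and 95.97 ± 5.05 CPM in WT libraries (SD, n = 3 each).

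The smallest p of all 74 peaks was that of chr16:55714872-55715229, which lies 96.1 kb from Nfkbiz and was the farthest peak within the 100 kb limit. It had 7.39, 13.3 and 14.6 CPM in Opa1 KO libraries, against 2.91, 2.71, 3.61 and 2.11 CPM in WT libraries. In counts this was 24, 21 and 27 in Opa1 KO libraries, against 6, 4, 6 and 4 in WT libraries. All Opa1 KO libraries were above all WT libraries, and WT libraries held no more than 3 read pairs (6 counts) each. It was the peak that passed the filter only through Opa1 KO libraries, so it had to be higher there to be tested. The log2 fold change was 1.999 ± 0.47 (SE) and the adjusted p 0.0548 (edgeR). Over the alternative settings that tested this peak the adjusted p ran from 0.0342 to 0.443, and it was under 0.05 only with loess offsets. The next peak outward, 112 kb from the gene and beyond the limit, had a log2 fold change of 0.03 (adjusted p = 0.991). Opa1 is on the same chromosome, 26.1 Mb away. Within 2 Mb on each side of the peak 9.64% of 83 tested peaks had an unadjusted p under 0.05, beside 11.2% of 1583 on all of chromosome 16. An adjusted p under 0.05 was found for 0 of these 83 peaks and for 13 of the 1583, or 0.821%, which is 13 of the 33 called in the whole table.

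The reverse held at chr16:55792382-55792614, 18.8 kb from Nfkbiz, which passed the filter only through WT libraries. Its log2 fold change was -1.54 ± 0.54 (SE; adjusted p = 0.314, edgeR). The 2 peaks thus had the most extreme values of the 74 and low counts.

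Tnfaip3 (chr10:19000910-19015410) encodes A20, a ubiquitin-editing enzyme induced by NF-kB that shuts off signals to the kinase complex. Its 15 peaks summed to 321, 324 and 328 CPM in Opa1 KO libraries, against 302, 351, 329 and 309 CPM in WT libraries. The Opa1 KO libraries lay within the WT range and the log2 fold change was 0.01 ± 0.07 (SE; adjusted p = 0.988, edgeR). Most of this level lay upstream of the transcript start, in 7 peaks 28.5 to 89.2 kb away. These summed to 266, 274.3 and 274.0 CPM in Opa1 KO libraries, against 226, 268, 266 and 248 CPM in WT libraries. The highest of them, chr10:19061962-19062997, had 123 ± 10.9 CPM in Opa1 KO libraries and 109.5 ± 20.6 CPM in WT libraries (SD, n = 3 each). The 3 peaks that touch the gene summed to 44.7, 46.8 and 52.3 CPM in Opa1 KO libraries, against 62.5, 75.1, 53.6 and 54.3 CPM in WT libraries. For this sum all Opa1 KO libraries were below all WT libraries, although Opa1 KO 3 came close to WT 3. Over all genes, sums of all assigned peaks did so in 4.93%. Taken singly, the groups overlapped at chr10:19009290-19009682 and chr10:19015216-19015667. The sum of these 3 peaks had a log2 fold change of -0.38 and an adjusted p of 0.358 (edgeR). Its unadjusted p was under 0.05, as for 1228 of the 12109 genes tested on overlapping peaks only. The peak with the smallest p was chr10:19011879-19012129 inside the gene, which overlaps the window of another RefSeq start with no kB match. It had 7.09, 7.58 and 5.93 CPM in Opa1 KO libraries, against 10.7, 10.8, 14.5 and 12.1 CPM in WT libraries. The groups did not overlap, and the log2 fold change of -0.80 ± 0.37 did not pass (SE; adjusted p = 0.484, edgeR). The promoter peak, which covers the Tnfaip3 window shown above, had the smallest change of the 3, a log2 fold change of -0.10.

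Other genes of the pathway were read from 4 lists, and none of their peaks or gene sums passed in edgeR or limma-voom (0 of 454 and 0 of 86 tested) or in DESeq2 (0 of 541 and 0 of 87). Before adjustment, p was under 0.05 for 38 peaks in edgeR (8.37%, beside 9.47% of all peaks), 38 in DESeq2 (7.02%, beside 7.78%) and 43 in limma-voom (9.47%, beside 10.3%). For gene sums it was 8 in edgeR (9.30%, beside 11.4% of all genes), 6 in DESeq2 (6.90%, beside 7.63%) and 12 in limma-voom (13.95%, beside 11.8%). For the 24 genes of the kinases, adaptors and activating ubiquitin ligases it was 5 of 104 peaks in edgeR (4.81%, beside 9.47%), 2 higher and 3 lower, and 0 of 24 gene sums (beside 11.4%), with a median peak log2 fold change of 0.00. The smallest p among their peaks was 17490 bases from Ikbkb, the kinase that phosphorylates IkB proteins, with a log2 fold change of 0.43 (adjusted p = 0.349, edgeR). Among their sums it was that of Rnf31, a linear ubiquitin ligase, with 0.25 (adjusted p = 0.465, edgeR).

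For the 21 other restrainers of NF-kB it was 7 of 107 peaks (6.54%, beside 9.47%), 6 higher and 1 lower (beside 4.74% and 4.73%), and 2 of 21 gene sums (9.52%, beside 11.4%), both higher, with a median peak log2 fold change of -0.04. Bcl3, a nuclear IkB that binds p50 and p52, had the smallest p in this list at both levels. Its sum was 140.3, 169 and 139 CPM in Opa1 KO libraries, against 105, 118, 138 and 128 CPM in WT libraries. The groups did not overlap, though Opa1 KO 3 and WT 3 nearly met, and the log2 fold change was 0.28 ± 0.10 (SE; adjusted p = 0.216, edgeR). Its peak chr7:19816247-19816580 had a log2 fold change of 0.77 (adjusted p = 0.265, edgeR).

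For the 24 NF-kB target genes with a peak it was 12 of 127 peaks (9.45%, beside 9.47%), 7 higher and 5 lower, and 4 of 24 sums (16.7%, beside 11.4%), 1 higher and 3 lower, with a median peak log2 fold change of -0.04. The smallest p was that of Bcl2a1b, an anti-apoptotic Bcl2 relative, with a gene-sum log2 fold change of -0.53 (adjusted p = 0.0799, edgeR), and -0.57 at its peak (adjusted p = 0.210, edgeR). Bcl2a1b has near-identical copies in the genome, so its counts are uncertain. For the 18 receptors with a peak it was 14 of 116 peaks (12.1%, beside 9.47%), 7 higher and 7 lower, and 2 of 17 tested sums (11.8%, beside 11.4%), both lower, with a median peak log2 fold change of -0.03. Tnfrsf8, which encodes CD30, a TNF-family receptor, had the smallest p in this list. Its sum was 295, 317 and 280.1 CPM in Opa1 KO libraries, against 359.6, 349.8, 374 and 325 CPM in WT libraries. All Opa1 KO libraries were lower, and the log2 fold change was -0.25 ± 0.07 (SE; adjusted p = 0.0878, edgeR). Its peak 8569 bases from the gene had 1.23, 2.53 and 0 CPM in Opa1 KO libraries, against 7.27, 4.06, 8.43 and 11.1 CPM in WT libraries (adjusted p = 0.100, edgeR).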

How the data were processed

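The file deposited by the authors gives raw counts for 50213 intervals in each of 7 ATAC-seq libraries, as whole numbers with no normalization. Per the submitters' processing notes, the build was mm10, and the tools included MACS2 2.1.1, bedtools 2.25.0, SAMtools 1.9, Picard 2.9.4, BWA 0.7.16 and Trimmomatic 0.36. No source used here gives their settings, the way peaks of different libraries were merged, or any shift of reads for the transposase offset. A shift would move peak edges slightly, and calling peaks on pooled reads would favour the deepest library. Peak positions are printed as deposited, since the file does not say if it counts bases from 0 or 1, and RefSeq windows count from 1.

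Groups were taken from the sample titles. Peaks were assigned to protein-coding genes of a GRCm38.p6 gene table: 32471 by overlap and 14997 by the nearest gene end within 100 kb, with 2745 unassigned. A peak may act on another gene than the nearest. The test was edgeR 4.0.16 (R 4.3.3, quasi-likelihood, robust) on all 7 libraries without covariates, with TMM scaling and filterByExpr (minimum count 10, minimum total 15), which left 38041 peaks and 13287 gene sums. P-values were adjusted by Benjamini-Hochberg over each table, with 0.05 as the threshold. Fold changes are Opa1 KO over WT, and an SE is the log2 fold change divided by the root of the F statistic. CPM use the same scaling. Intervals are 95%. There were no molecular identifiers, and PCR copies are not independent, so a floor of 6 counts takes in counting error alone. Alternatives were DESeq2 1.42.0, limma-voom (limma 3.58.1), other scalings and filters, halved counts and WT 2 and 3 summed. A replicate block, other gene windows and leaving out each library were also used. Numbers tested in DESeq2 count p-values before adjustment, since its default filter can withhold adjusted ones at low counts.

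The 10 genes and the lists were chosen with earlier results of these data known. Named were the 10 gene sums, each gene's peak with the highest count and with the smallest p, and each list's peak and sum with the smallest p. The other Nfkb1 and Nfkbiz peaks, the second Nfkb2 peak and the parts of Tnfaip3 were added after their values had been seen. Further marker sums over the genes with a peak, in CPM, were as follows. T cell genes had 240 to 274 in Opa1 KO libraries and 252 to 298 in WT libraries. CD8 T cell genes had 256 to 280 in Opa1 KO and 226 to 293 in WT. Myeloid genes had 45.1 to 53.0 in Opa1 KO and 51.8 to 65.3 in WT, erythroid genes 42.1 to 57.5 in Opa1 KO and 29.3 to 45.8 in WT, and dendritic cell genes 165 to 187 in Opa1 KO and 164 to 198 in WT.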

Additional observations from a re-analysis of the deposited data

How the results depend on the processing

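Over the 27 values recomputed for the 10 loci, 486 alternatives gave 1 call: the far Nfkbiz peak with loess offsets (adjusted p = 0.0342), so the count of called peaks was 1 there and 0 in the other settings. None of the member gene sums was called in any setting. Over the whole table, the count of called peaks was 33 as reported, 55 with limma-voom, 60 under a filter of 20 mean counts, 82 with counts halved and 13 with the replicate block, and 15 (without Opa1 KO 1) to 43 (without WT 2) with 1 library left out. It fell by over 1.5 times also without WT 1 (18) and Opa1 KO 3 (16). Called gene sums numbered 46 as reported, 16 with DESeq2, 79 with counts halved and 23 with the replicate block, and 8 (without Opa1 KO 3) to 67 (without WT 2) with 1 library left out. That count fell by over 1.5 times also without WT 1 (24), WT 3 (30), WT 4 (27) and Opa1 KO 1 (12). The list gene sums had 0 calls as reported, 1 each with total counts only and loess offsets, 2 with counts halved, and 0 to 1 with 1 library left out. Tnfrsf8 was the gene called with total counts only and loess offsets, Tnfrsf8 and Bcl2a1b with counts halved, and Bcl2a1b without Opa1 KO 2.

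The labels do not say whether the replicate numbers pair the samples. Same-numbered libraries had deviations from their group means that correlated at 0.0106, -0.0119 and 0.00372. Libraries of a group differed little beyond sampling noise, so correlations near 0 cannot show whether samples were paired. Log2 fold changes with the replicate block were -0.083 for the Rela peak at 5637188, -0.036 for the Nfkbia promoter peak and -0.0066 for the Tnfaip3 sum.

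Of the 27 values, those near 0 changed sign without reaching a call. The Nfkbia promoter peak was at -0.024 with total counts only, with counts halved and under the filter of 20 mean counts, and at -0.066 with loess offsets. The Nfkbie peak inside the gene was at 0.0055 with DESeq2, 0.012 with no filter and 0.011 with WT 2 and 3 summed. The Nfkbia sum was at 0.015 with WT 2 and 3 summed and 0.0069 with peaks within 10 kb. The Nfkbiz sum was at 0.0021 with no filter, 0.0046 with WT 2 and 3 summed and 0.048 with overlapping peaks only. The Tnfaip3 sum was at -0.0062 with total counts only, -0.023 with loess offsets, -0.0054 over tested peaks only, -0.37 within 10 kb and -0.38 over overlapping peaks only, since the distant peaks then drop out. With 1 library left out, the ranges that crossed 0 were -0.19 to 0.016 for the Rel promoter peak, -0.092 to 0.24 and -0.039 to 0.43 for the Rela peaks, -0.045 to 0.053 for the Nfkbia promoter peak and -0.12 to 0.13 for the Nfkbie peak inside the gene. For sums they were -0.13 to 0.0094 for Rel, -0.068 to 0.024 for Nfkb1, -0.041 to 0.061 for Nfkbia, -0.030 to 0.029 for Nfkbiz and -0.023 to 0.050 for Tnfaip3. The causes were not tested. With gene ends taken to 2.5 kb, the median at gene ends was 0.0039. The 11 peaks below the filter on low counts were tested with no filter, and none was called. DESeq2 also tested them, but its default filter can withhold the adjusted p at low counts, so it cannot decide whether they pass. The Nfkbid sum kept its direction, from 0.18 to 0.48, with 1 library left out.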
